A study of Mus musculus with 19 samples.

Results

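The step from LSK cells to common myeloid progenitors (CMPs) was examined in cells that carried sh20, an inducible short hairpin RNA against the lncRNA *Spehd*. The libraries were chosen by their labels alone, as all those with the hairpin numbered 20, and they were 2 from CMPs (replicates B and C) and 3 from LSK cells (replicates A, B and C, called KLS in the labels). They are 5 of the 19 libraries of the series. The other 14 came from the same design with sh10, another hairpin against *Spehd* (3 CMP and 3 LSK libraries), or with a control shRNA against *Renilla* luciferase (4 CMP and 4 LSK libraries), and they entered the fit and served for comparison. In every group, E-SLAM hematopoietic stem cells (HSCs) of C57BL/6 donors were transduced with a doxycycline-inducible hairpin vector that carries zsGreen. They were transplanted without competitor cells into young adult C57BL/6-CD45.1; cKit-w41 recipients of both sexes after sublethal irradiation. Recipients were left for 10 weeks and fed doxycycline for 6 days, and zsGreen-positive cells were then sorted from the bone marrow and sequenced as bulk RNA. The control groups therefore carried a vector, a transplant and doxycycline as well. The cKit-w41 hosts keep blood cells of their own, which should lack zsGreen. Whether a library came from 1 animal or from pooled animals was not given in the sources used here, so p-values measure the spread between these libraries.

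LSK cells are lineage-negative, Sca1-positive and cKit-positive bone marrow cells, and they hold the HSCs and the multipotent progenitors. CMPs lack Sca1, keep cKit and CD34, and lie upstream of the granulocyte and monocyte branch and of the megakaryocyte and erythrocyte branch. On this step stem cell regulators such as the HOX and MECOM factors are known to fall and lineage factors such as GATA1, KLF1 and the C/EBP family to take over. *Spehd* is a lncRNA of hematopoietic cells whose locus lies beside *Gata2*, which encodes a transcription factor of stem and progenitor cells.

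The hairpins are shown because the guide strand is the part of the vector that was meant to differ between the hairpin groups. Each guide has 22 bases, is written 5′ to 3′, and its seed (bases 2 to 8) is in capitals.
sh20 guide: tATGCTATgacaacccagggca
sh10 guide: tACAAAGTcagcttttcctctc
Renilla guide: tAGATAAGcattataattccta
The 3 seeds differ from each other. No gene in the counted annotation is named *Spehd*, so the level of the target itself was not measured here in any library.

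The libraries held 5965155 and 5680969 counts on genes in CMP replicates B and C, and 5129902, 4649170 and 5386811 counts in LSK replicates A, B and C, within the range of 3647318 to 5965155 over all 19. Of 54352 genes counted, 15066 passed the filter on low counts and were tested, and levels are given below as CPM, gene counts scaled to the same total in every library. CMP replicate B stood apart. Its log2 CPM correlated with that of replicate C at r = 0.884 across genes, against 0.908 to 0.983 for all other pairs of 1 group. Across the genes with a median of at least 20 CPM in the other 18 libraries, 37 were under 1 CPM in it, against 0 to 6 in each other library. For this reason counts without this library are given beside the main ones where it moved them most. With sh20, CMP libraries had 17174 and 18066 genes with at least 1 count and LSK libraries 17587 to 17817, both below the 18552 to 20678 of the other 14 libraries.

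The genes whose products chose the cells were looked at first, as a check of the labels and not as a finding. *Ly6a*, which encodes Sca1, measured 56.2, 80.0 and 62.3 CPM in the LSK libraries and 9.83 and 1.58 CPM in the CMP libraries. *Cd34*, the marker of early progenitors, was at 424 to 457 CPM in LSK cells and 187 CPM in both CMP libraries. *Flt3*, a receptor of multipotent and lymphoid-primed progenitors, measured 258 to 387 CPM in LSK cells and 113 and 131 CPM in CMPs. *Fcgr2b* and *Fcgr3*, the Fc receptors of the FcγR gate, were at 30.3 to 33.5 and 59.2 to 82.1 CPM in LSK cells, and at 2.03 to 8.25 and 17.6 to 30.0 CPM in CMPs. *Kit*, which both gates require, was present throughout, at 734 to 745 CPM in LSK cells and 446 and 641 CPM in CMP replicates B and C. *Il7r*, which a myeloid progenitor should lack, was at 0.878 CPM or below in both CMP libraries. Of these 7 genes, 5 passed the test described next as lower in CMPs and 0 as higher, against 8.64% and 5.94% of all genes, and *Kit* (adjusted p = 0.158) and *Il7r* (adjusted p = 0.411) did not pass. *Fcgr3* lost its call in 4 of 28 alternative fits, among them those without CMP replicate C and without LSK replicate C.

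With sh20, CMPs had 895 genes at a higher level and 1302 at a lower level than LSK cells at an adjusted p under 0.05, or 5.94% and 8.64% of the 15066 tested. These shares are the background for each gene group below. The test was edgeR's quasi-likelihood test in a fit of all 19 libraries with Benjamini-Hochberg adjustment, which borrows the spread of the other groups. A fit of the 5 sh20 libraries alone called 142 genes higher and 151 lower. Without CMP replicate B, 595 were higher (3.69%) and 841 lower (5.22%), among them 429 of the 895 and 587 of the 1302. Without CMP replicate C, 1004 were higher (6.22%) and 1675 lower (10.4%), and without LSK replicate B of sh10, which enters through the shared spread, 1464 were higher and 1619 lower. Regardless of any test, both CMP libraries lay above all 3 LSK libraries in 2726 genes (18.1%) and below them in 2875 (19.1%). The median log2 fold change over all genes was -0.02.

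**Figure D1:**
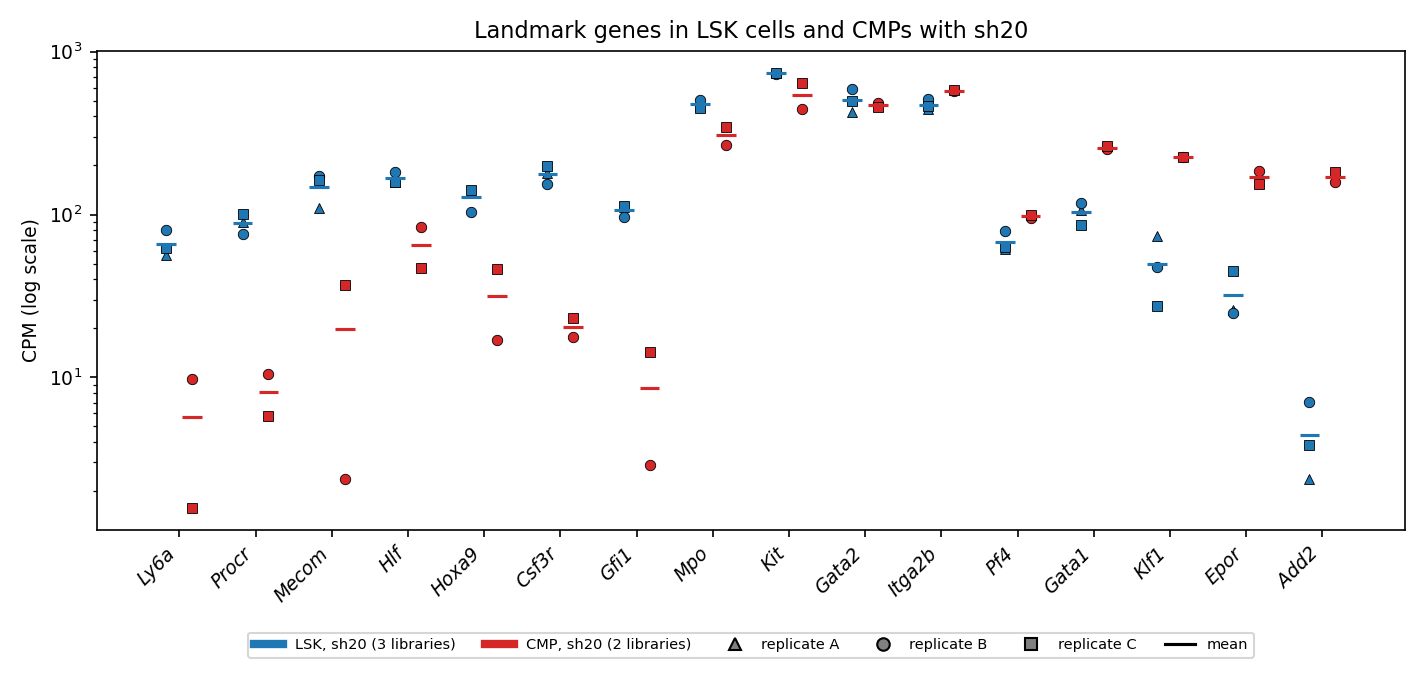
CPM on a log axis of 16 genes in the 3 LSK libraries (blue) and the 2 CMP libraries (red) with sh20. Symbols give the replicate letter and bars the group means. Stem cell and myeloid genes from *Ly6a* to *Gfi1* sit higher in LSK cells, and *Gata1*, *Klf1*, *Epor* and *Add2* sit higher in CMPs, whereas *Gata2* overlaps. The spread between the CMP libraries is wide for *Mecom* (2.37 and 37.1 CPM) and *Gfi1* (2.88 and 14.4 CPM).

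The 10 genes with the largest rise were almost silent in LSK cells. *Sh3tc2* measured 0.789, 0.215 and 0.367 CPM in LSK cells and 50.7 and 83.8 CPM in CMPs, a log2 fold change of 7.11 ± 0.62 (SE, adjusted p = 3.85e-06). *Spon2*, which encodes a secreted matrix protein, measured 2.37, 0.215 and 0.367 CPM in LSK cells and 77.3 and 89.0 CPM in CMPs (6.36 ± 0.63, adjusted p = 7.45e-06). *Epb42*, which encodes protein 4.2 of the red cell membrane skeleton, rose from at most 0.789 CPM to 29.8 and 22.1 CPM (6.49 ± 1.23, adjusted p = 0.002). The largest rises and falls were picked among genes without overlap between the 2 groups, so this separation is not a finding. Of all tested genes, 18.1% lay wholly above and 19.1% wholly below in CMPs. *Btnl10* rose from 1 count in all LSK libraries together to 25.9 and 27.0 CPM, and its pooled ratio of 401 had a 95% counting interval of 71.5 to 15900. *Acsl6*, an acyl-CoA synthetase, rose from at most 0.592 CPM to 36.4 and 34.8 CPM. *Camsap2*, which binds microtubule minus ends, rose from at most 0.645 CPM to 51.9 and 45 CPM. For *Agtr1a*, an angiotensin II receptor, and *Nags*, a synthase of the urea cycle, the CMP libraries differed widely from each other (47.4 and 8.43 CPM for the first, 52.7 and 7.90 CPM for the second). *Spib*, an ETS factor of B cells and plasmacytoid dendritic cells, was at 28.3 and 14.6 CPM in CMPs and at most 0.394 CPM in LSK cells, and *Sowaha* at 29.5 and 19.8 against at most 0.367 CPM. All 10 remained called without CMP replicate B, with adjusted p from 1.3e-05 (*Sh3tc2*) to 0.0198 (*Nags*).

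The 10 genes with the largest fall had 1 to 4 counts in both CMP libraries together, so their fitted fold changes depend on the prior count and are replaced here by pooled ratios with counting intervals. *Fgd5*, a marker of HSCs, measured 45.5, 30.3 and 44.8 CPM in LSK cells and 0.678 and 0 CPM in CMPs, 118-fold lower (95% counting interval 45.8 to 434). *Trib3*, a pseudokinase of the integrated stress response, measured 25.4, 23.9 and 35.6 CPM in LSK cells and 1 count in each CMP library, 166-fold lower (45.7 to 1370). *Ccdc149* measured 22.4 to 37.0 CPM in LSK cells and 0.339 and 0 CPM in CMPs, 164-fold lower (45.1 to 1360). These 3 genes were close together in the LSK libraries. *Arhgap28*, a GTPase-activating protein, was spread more widely there (17.7, 31.6 and 58.6 CPM) and had 1 count in CMPs, 425-fold lower (76.0 to 16800). *Npr2*, a natriuretic peptide receptor, *Azin2*, an antizyme inhibitor of polyamine metabolism, *Bdh2*, a dehydrogenase, and *Tlr3*, a sensor of double-stranded RNA, ranged from 5.51 to 38.6 CPM in LSK cells, with pooled ratios from 102 (*Tlr3*) to 249 (*Npr2*). The zinc finger genes *Zscan18* and *Zfp174* ranged from 7.72 to 28.2 CPM in LSK cells, with ratios of 197 and 200. All 10 remained called without CMP replicate B.

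Of 31 erythroid genes tested, 22 were higher in CMPs and 1 was lower, and their median log2 fold change was 2.19 against -0.02 over all genes. Without CMP replicate B the counts were 19 and 1. *Gata1*, the master factor of the erythroid and megakaryocytic lineages, measured 106, 118 and 86.3 CPM in LSK cells and 253 and 262 CPM in CMPs, with a log2 fold change of 1.31 ± 0.21 (SE, edgeR, adjusted p = 0.000429). *Klf1*, the erythroid Krüppel-like factor, rose from 73.5, 47.3 and 27.4 CPM to 227 and 225 CPM (2.19 ± 0.35, adjusted p = 0.000545). For both genes every CMP library lay above every LSK library. *Epor*, the erythropoietin receptor, measured 26.0, 24.7 and 45.2 CPM in LSK cells and 185 and 155 CPM in CMPs (2.40 ± 0.28, adjusted p = 2.99e-05). *Tfrc*, which takes up transferrin-bound iron, rose from 71.4 to 92.7 CPM to 384 and 364 CPM. Thus transcripts of transcription factors, of a receptor and of the iron uptake gene *Tfrc* rose together.

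Several members rose from very low levels. *Add2*, which encodes β-adducin, measured 2.37, 7.10 and 3.86 CPM in LSK cells and 158 and 183 CPM in CMPs (5.27 ± 0.48, adjusted p = 4.67e-06). *Ank1*, which encodes ankyrin 1, rose from 0.551 to 1.58 CPM to 55.1 and 27.2 CPM. The membrane protein gene *Cldn13* and the sphingosine kinase gene *Sphk1* rose as well, to 138 and 116 CPM and to 324 and 239 CPM, from at most 5.92 and 12.8 CPM. The member called lower was *Cnrip1* (-2.63). The adult globin gene *Hbb-bs* did not pass, at 0.789, 30.5 and 1.65 CPM in LSK cells and 12.2 and 11.8 CPM in CMPs. LSK replicate B also held the most red cell markers of the LSK libraries, with a summed level of 192 CPM against 67.8 and 72.6 CPM in A and C, and without it 7 of 9 such markers, rather than 2, passed as higher in CMPs. Without it 24 erythroid genes were higher and 1 was lower, with a median of 2.19.

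Of 13 genes of heme synthesis and its transport, 7 were higher in CMPs and 1 was lower, with a median of 0.60. *Cpox*, coproporphyrinogen oxidase, measured 82.2, 81.9 and 109 CPM in LSK cells and 309 and 288 CPM in CMPs (1.71 ± 0.18, adjusted p = 1.26e-05). *Fech*, which inserts the iron, rose from 127, 145 and 128 CPM to 307 and 310 CPM (1.21 ± 0.15, adjusted p = 5.36e-05). The mitochondrial carriers *Slc25a38* and *Abcb10* rose to 3.31 and 2.78 times the LSK level. *Alas1*, the housekeeping enzyme of the first step, was the member called lower (-0.56), with no call without CMP replicate C, without LSK replicate C or from the 5 sh20 libraries alone, and the erythroid enzyme of that step, *Alas2*, was spread from 0 to 27.5 CPM in LSK cells and did not pass (adjusted p = 0.931).

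The promoter of *Epor* is shown because many erythroid genes passed as higher, with each match to AGATAA, the motif of GATA factors, and to CCNCNCCC, a motif of Krüppel-like factors, in capitals. Both motifs were read on either strand. The window, from RefSeq on GRCm38.p6, is chr9:21963527-21963826 on the minus strand, from 250 bases before to 50 bases after the start of the gene.
Epor promoter: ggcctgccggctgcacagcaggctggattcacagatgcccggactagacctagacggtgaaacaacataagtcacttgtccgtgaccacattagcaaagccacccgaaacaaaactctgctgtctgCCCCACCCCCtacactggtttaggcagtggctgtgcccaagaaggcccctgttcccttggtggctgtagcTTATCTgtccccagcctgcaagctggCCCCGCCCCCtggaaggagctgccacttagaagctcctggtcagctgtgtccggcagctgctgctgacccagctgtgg
It holds 1 AGATAA match and 4 overlapping CCNCNCCC matches. Of the 29 erythroid and heme genes called higher, 23 matched the promoter table. AGATAA occurred in 10 of their 31 windows (32.3%) and in 6.99% of the 13773 windows of all tested genes that matched. CCNCNCCC occurred in 71.0% of theirs and in 65.8% of all. Windows of 1 gene can overlap, and no test was made of these shares.

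Of 27 megakaryocyte genes, 13 were higher in CMPs, 0 were lower and 14 did not pass, with a median of 1.06. Without CMP replicate B, 7 of the 27 were higher, and the median was 1.09. Without LSK replicate A, 8 were higher, and from the 5 sh20 libraries alone 5 of 25. DESeq2 gave 13 higher and 0 lower. *Treml1*, a receptor stored in platelet granules, measured 18.1, 26.4 and 14.1 CPM in LSK cells and 133 and 126 CPM in CMPs, with a log2 fold change of 2.72 ± 0.46 (SE, edgeR, adjusted p = 0.000755). *Clec1b*, the podoplanin receptor CLEC-2, rose from 4.54, 1.94 and 3.49 CPM to 39.5 and 36.7 CPM (3.51 ± 0.63, adjusted p = 0.00135). *Ppbp*, a platelet chemokine, rose from 13.2, 7.96 and 6.61 CPM to 67.4 and 92.5 CPM. The 2 groups stood clear of each other in all 3. *Timp3* was at 16.0, 68.2 and 44.3 CPM in LSK cells and 275 and 222 CPM in CMPs, and it lost its call without CMP replicate B (adjusted p = 0.0671) or without LSK replicate A. The early markers *Itga2b* (CD41) and *Pf4* were present in both populations and did not pass, at 444 to 514 against 574 and 578 CPM and at 61.1 to 78.7 against 95.6 and 100 CPM.

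**Figure D2:**
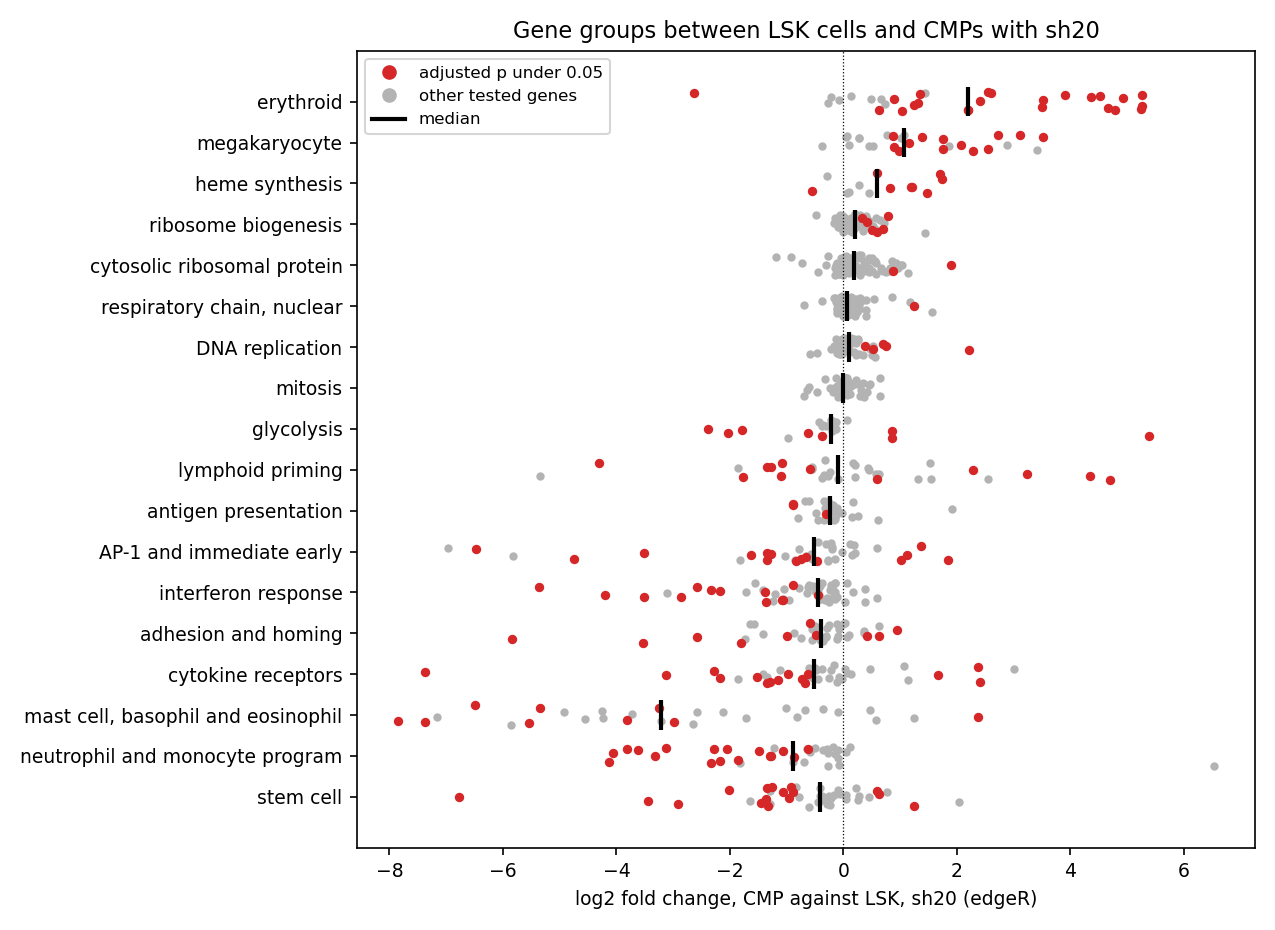
Log2 fold change of CMPs against LSK cells with sh20 for each tested gene of 18 groups. Red points had an adjusted p under 0.05, grey points did not, and the black bar is the median of the group, from -3.22 for mast cell, basophil and eosinophil genes to 2.19 for erythroid genes.

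Of 44 stem cell genes tested, 14 were lower in CMPs and 3 were higher, with a median of -0.42. *Procr*, which encodes the HSC marker EPCR, measured 90.1, 76.3 and 101 CPM in LSK cells and 10.5 and 5.79 CPM in CMPs, a log2 fold change of -3.44 ± 0.47 (SE, edgeR, adjusted p = 0.00013). *Mecom*, a factor needed by long-term HSCs, fell from 110, 172 and 163 CPM to 2.37 and 37.1 CPM (-2.92 ± 0.70, adjusted p = 0.0104). *Hoxa9* fell from 138, 103 and 141 CPM to 16.9 and 46.4 CPM (-2.01 ± 0.32, adjusted p = 0.000477). The CMP libraries were below all LSK libraries for each, and for *Mecom* and *Hoxa9* replicate B was the lower. *Hlf*, an HSC factor of the PAR bZIP family, went the other way round between the replicates, from 159 to 183 CPM in LSK cells to 83.7 in B and 46.9 CPM in C (-1.35 ± 0.23, adjusted p = 0.000997). *Fgd5*, described above, had the largest fall of the group. The 3 members called higher were *Tal1* (1.25), *Gfi1b* (0.62) and *Bcl11a* (0.60), of which the first 2 also act in erythroid and megakaryocytic cells, and *Gfi1b* lost its call without CMP replicate B (adjusted p = 0.0638). *Meis1* (358 to 407 against 270 and 298 CPM) and *Mycn* (234 to 385 against 328 and 266 CPM) did not pass.

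Of 36 genes of the neutrophil and monocyte program tested, 17 were lower in CMPs than in LSK cells, 0 were higher and 19 did not pass, with a median of -0.88. DESeq2 called 19 lower and 1 higher. Without CMP replicate B, 11 were lower and 1 was higher, with a median of -1.11. *Csf3r*, the receptor of granulocyte colony-stimulating factor, lies on chr4 from 126024550 to 126044440 (GRCm38, GENCODE vM21) and was among the most stable falls. It measured 181, 154 and 199 CPM in LSK cells and 17.8 and 23.2 CPM in CMPs, a log2 fold change of -3.12 ± 0.15 (SE, edgeR, adjusted p = 1.81e-09). It kept its call in all 28 alternative fits, as did *Hdc* and *Prtn3*, described below. *Gfi1*, a repressor needed for neutrophils and for HSC quiescence, fell from 111, 95.9 and 112 CPM to 2.88 and 14.4 CPM (-3.62 ± 0.48, adjusted p = 0.000103). *Hdc*, histidine decarboxylase, fell from 53.8, 138 and 93.0 CPM to 4.58 and 8.78 CPM (-3.82 ± 0.54, adjusted p = 0.000184). For these genes each CMP library was below every LSK library.

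Among the transcription factors of this list, *Cebpa* measured 35.3, 35.3 and 17.3 CPM in LSK cells and 5.08 and 8.96 CPM in CMPs (-2.06 ± 0.44, adjusted p = 0.00464), and lost its call without CMP replicate B (adjusted p = 0.0633). *Cebpe*, a factor of late granulocytes, had 8 counts in CMPs, against 7.35 to 19.4 CPM in LSK cells. *Spi1*, which encodes PU.1, was at 161 to 178 CPM in LSK cells and 111 and 75.5 CPM in CMPs (-0.87 ± 0.21, adjusted p = 0.00941), and lost its call without CMP replicate C. *Elane*, neutrophil elastase, measured 112, 105 and 153 CPM in LSK cells and 44.7 and 57.1 CPM in CMPs (-1.28 ± 0.24, adjusted p = 0.00199). *Prtn3*, proteinase 3, measured 141, 147 and 158 CPM in LSK cells and 60.5 and 61.1 CPM in CMPs (-1.29 ± 0.20, adjusted p = 0.000429). The fall was smaller in *Mpo*, myeloperoxidase, from 454 to 508 CPM to 268 and 346 CPM, with no call without CMP replicate B (adjusted p = 0.134). *Hp*, haptoglobin, fell to 2.54 and 4.21 CPM and likewise lost its call without that library (adjusted p = 0.073). *Irf8*, a factor of monocytes and dendritic cells, overlapped between the groups.

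The promoters of *Csf3r* and *Elane* are shown because both genes are members of this list. GAGGAAG, a purine-rich motif of the PU.1 type read on either strand, is in capitals, and the windows are those of RefSeq on GRCm38.p6, chr4:126024409-126024708 and chr10:79886062-79886361, both on the plus strand.
Csf3r promoter: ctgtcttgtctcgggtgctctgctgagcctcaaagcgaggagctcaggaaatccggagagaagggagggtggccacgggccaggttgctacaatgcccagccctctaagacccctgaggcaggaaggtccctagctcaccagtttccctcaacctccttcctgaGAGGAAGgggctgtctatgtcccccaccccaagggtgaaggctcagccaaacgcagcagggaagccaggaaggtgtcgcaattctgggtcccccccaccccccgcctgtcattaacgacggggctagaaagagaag
Elane promoter: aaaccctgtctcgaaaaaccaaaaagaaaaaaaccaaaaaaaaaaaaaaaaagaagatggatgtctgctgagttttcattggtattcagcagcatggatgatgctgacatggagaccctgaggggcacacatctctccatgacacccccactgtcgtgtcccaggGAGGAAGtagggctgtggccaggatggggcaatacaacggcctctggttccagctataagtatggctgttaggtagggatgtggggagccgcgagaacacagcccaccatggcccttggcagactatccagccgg
Each window holds 1 match. Of the 17 genes called lower, 12 matched the table, with 14 windows, and 8 of these windows (57.1%) held GAGGAAG, against 13.8% of all 13773. TTGCNNAA, a C/EBP-type motif read on either strand, occurred in 14.3% of their windows and in 8.80% of all. The motifs were chosen after the changes of these groups were known, and no test was made.

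Mast cell, basophil and eosinophil genes had the lowest median of any group, -3.22 over 29 genes, with 8 lower and 1 higher. *Ms4a2*, the β chain of the IgE receptor, measured 26.2, 124 and 30.9 CPM in LSK cells and 1.69 and 1.23 CPM in CMPs, a log2 fold change of -5.34 ± 1.03 (SE, edgeR, adjusted p = 0.0023). *Cyp11a1*, a steroidogenic enzyme of mast cells and basophils, fell from 29.2, 78.9 and 16.2 CPM to 0.678 and 1.05 CPM (-5.54 ± 0.81, adjusted p = 0.000247). *Cd200r3*, a basophil and mast cell receptor, fell from 4.34, 52.0 and 20.8 CPM to 3 counts in CMP replicate B and 0 in C, 96.1-fold lower (95% counting interval 32.6 to 468). In all of these LSK replicate B was the highest, and without it the median of the group was -1.24, with 9 genes lower. In that fit the median of the gate genes was lower, at -1.45, so the rank rests on this library. In bulk RNA, fewer cells of a type and less RNA per cell cannot be told apart. *Il1rl1*, the interleukin 33 receptor, was the member called higher, at 96.8 and 47.4 CPM in CMPs against 10.5 to 19.6 CPM in LSK cells, and it lost its call without CMP replicate B (adjusted p = 0.0909).

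Among 40 cytokine receptor genes 13 were lower and 3 were higher, with a median of -0.52. *Csf2rb*, the common β chain of the IL-3, IL-5 and GM-CSF receptors, measured 97.6, 122 and 85.8 CPM in LSK cells and 25.4 and 16.3 CPM in CMPs (-2.28 ± 0.25, edgeR, adjusted p = 1.85e-05). *Csf3r* and *Flt3* fell, and *Epor* and *Il1rl1* rose, as described above. The counts were 9 lower and 1 higher without CMP replicate B. Without CMP replicate C 8 were lower, and without LSK replicate B 7. Among 38 adhesion and homing genes 8 were lower and 3 were higher, with a median of -0.39. *Adgrl4*, an adhesion receptor known from endothelium, measured 599, 519 and 526 CPM in LSK cells and 162 and 151 CPM in CMPs (-1.81 ± 0.29, edgeR, adjusted p = 0.000579). *Cdh1*, which encodes E-cadherin, was spread from 9.66 to 56.1 CPM in LSK cells and was at 0.169 and 0.878 CPM in CMPs. It and *Jam3* lost their calls without CMP replicate B (adjusted p = 0.0651 and 0.102). *Emcn*, endomucin, was at 8.30 CPM in CMP replicate B and 0 in C, and its call (adjusted p = 0.0443) was lost in 19 of 27 alternative fits.

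Interferon response genes were lower or did not pass, with 13 of 55 lower, 0 higher and a median of -0.45. DESeq2 called 15 lower and 1 higher. *Oas2*, an antiviral synthetase, measured 34.9, 34.6 and 33.1 CPM in LSK cells and 0.678 and 2.99 CPM in CMPs, a log2 fold change of -4.21 ± 0.90 (SE, edgeR, adjusted p = 0.00468). *Ifi44* fell from 49.3, 78.7 and 40.1 CPM to 15.1 and 3.51 CPM (-2.58 ± 0.51, adjusted p = 0.00268), and *Zbp1*, a nucleic acid sensor, from 20.2 to 36.8 CPM to 0.678 and 7.02 CPM. The central factor *Irf7* overlapped between the groups, at 46.5 to 122 CPM in LSK cells and 78.3 and 89.7 CPM in CMPs. Of 36 antigen presentation genes, 3 were lower, namely *H2-Ob* (-0.89), *Tapbpl* (-0.88) and *Tapbp* (-0.30), a share of 8.33% beside the 8.64% of all genes. DESeq2 called 6 lower and 1 higher. Without LSK replicate B of sh10, 7 were lower and 1 was higher, beside 1619 lower of 14953 genes tested, and from the 5 sh20 libraries alone 0 were called. *H2-Ob* lost its call without CMP replicate C, and *Tapbp* in 20 of 28 alternative fits.

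Of 38 AP-1 and immediate early genes 11 were lower and 4 were higher, with a median of -0.52. The counts were 5 lower and 4 higher without CMP replicate B, and without LSK replicate C 7 were lower. *Socs3*, a feedback inhibitor of JAK-STAT signaling, measured 19.9, 16.3 and 27.4 CPM in LSK cells and 0.678 and 2.99 CPM in CMPs (-3.52 ± 0.53, edgeR, adjusted p = 0.00032). *Fos* measured 1.38, 10.5 and 18.0 CPM in LSK cells and 1 count in both CMP libraries together, 118-fold lower (95% counting interval 20.8 to 4680), and lost its call without CMP replicate B (adjusted p = 0.0783). *Jun* (36.7 to 153 against 39.1 and 56.9 CPM) and *Egr1* (28.2 to 78.6 against 57.6 and 33.4 CPM) overlapped. *Gadd45a*, a growth arrest gene, rose from 19.3, 20.4 and 23.7 CPM to 61.0 and 48.8 CPM (1.37 ± 0.20, edgeR, adjusted p = 0.00025). *Gadd45b* fell from 10.8 to 18.0 CPM to 5.93 and 2.81 CPM, and *Klf2* rose from 4.41 to 9.27 CPM to 18.0 and 33.7 CPM. Both lost their calls without CMP replicate C and without LSK replicate C.

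Lymphoid priming genes were split, with 5 of 33 higher, 7 lower and a median of -0.10. Without LSK replicate C of *Renilla*, 3 were higher. Without CMP replicate C 2 were higher, and 3 were higher without LSK replicate A or C, without any 1 CMP library of sh10, or without CMP replicate B or D of *Renilla*. *Notch1* was at 18.7 to 31.6 CPM in LSK cells and 2.03 and 12.8 CPM in CMPs, and lost its call without CMP replicate B (adjusted p = 0.254), LSK replicate B or LSK replicate C. *Tcf7*, a T cell factor, rose from 4.34, 6.67 and 1.29 CPM to 64.7 and 101 CPM (4.35 ± 0.55, edgeR, adjusted p = 7.06e-05). Besides *Tcf7* and *Bcl11a*, the members called higher were *Blnk*, *Cd79a* and *Ly6d*, which were highest in CMP replicate C. *Blnk*, an adapter of the B cell receptor, was at 10.0 CPM in CMP replicate B and 35.5 CPM in C, against 0.367 to 5.16 CPM in LSK cells, and lost its call without C. *Ly6d*, a marker of B-lineage and plasmacytoid progenitors, was at 1.53 CPM in B and 18.3 CPM in C. *Cd79a* was at 0.508 CPM in B and 36.2 CPM in C, and without replicate C its log2 fold change of 4.69 became -0.42. Its call was lost in 11 of 26 alternative fits, that one included. The pre-B cell genes *Igll1* (0.339 in B and 90.1 CPM in C) and *Ebf1* (0.339 and 41.1 CPM) failed the filter and showed the same split.

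**Figure D3:**
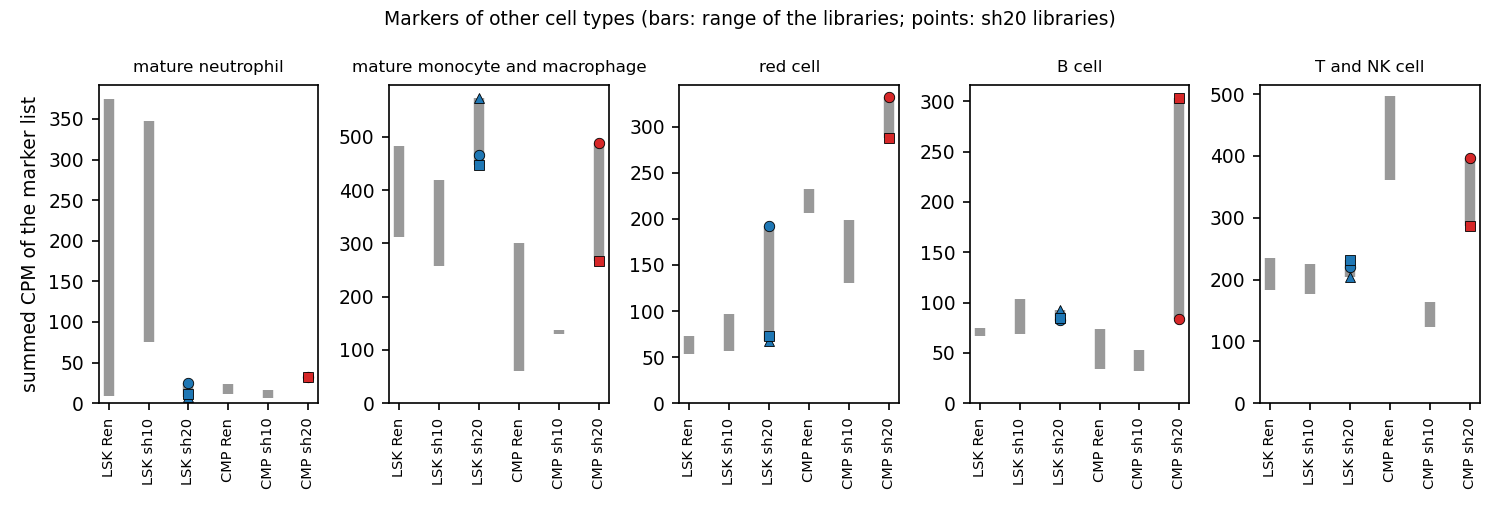
Summed CPM of marker lists of 5 other cell types. Grey bars span the libraries of each of the 6 groups, and points are the sh20 libraries (blue LSK, red CMP) with the replicate letter as symbol. B cell markers reach 303 CPM in CMP replicate C, and monocyte and macrophage markers 488 CPM in CMP replicate B.

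The markers of other cell types were summed per library. B cell markers came to 82.6 to 92.5 CPM in LSK cells, 83.7 CPM in CMP replicate B and 303 CPM in C, and 2 of 6 passed as higher, and 0 without LSK replicate A or C. Monocyte and macrophage markers came to 448 to 573 CPM in LSK cells, 488 CPM in CMP replicate B and 267 CPM in C, and 1 of 11 passed as higher, *Cx3cr1*. It was at 77.6 CPM in B and 10.5 CPM in C, against 2.37 to 11.8 CPM in LSK cells, and lost its call without CMP replicate B (adjusted p = 0.624), LSK replicate A or LSK replicate C. T and NK cell markers came to 204 to 231 CPM in LSK cells and to 397 and 286 CPM in CMPs, and 5 of 13 passed as higher. The defining genes *Cd3e* (0.197 to 0.735 against 33.7 and 11.9 CPM) and *Cd3g* (0.215 to 0.919 against 44.4 and 19.3 CPM) were among them, while *Cd8a* and *Cd8b1* did not pass. Red cell markers came to 67.8 to 192 CPM in LSK cells and 332 and 288 CPM in CMPs. Of 9 such markers 2 passed as higher. Mature neutrophil markers came to 7.10 to 25.2 CPM in LSK cells and 32.7 CPM in both CMP libraries, with *Mmp9* alone of 12 passing (adjusted p = 0.0304, 0.0943 without CMP replicate B, and no call without LSK replicate A or B) and *S100a8* at 2.20 CPM or below in all 5. The dendritic cell list gave 2 of 10 higher, among them *Zbtb46* (1.97 to 11 against 59.3 and 46.4 CPM), and 2 lower, and 1 and 1 without CMP replicate C, and the stroma and endothelium list gave 0 of 6 higher and 1 lower, *Pdgfrb* (-0.86), whose call was lost in 16 of 28 alternative fits. By the methods of the study, marrow for progenitor populations was first depleted of lineage-positive cells, a step meant to remove mature blood cells. Their part in the differences above was not tested.

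Among genes of the cell cycle, the share that passed differed between lists. Of 20 cyclin, CDK and inhibitor genes 2 were higher (10.0%) and 1 was lower (5.0%), with a median of 0.02. Of 57 mitosis genes 0 were higher and 0 lower in edgeR and in DESeq2, against 5.94% and 8.64% of all genes, and the median was 0.00. Without CMP replicate C or LSK replicate A 2 were higher, and without LSK replicate C 2 were lower. Of 52 DNA replication genes 5 were higher (9.62% against 5.94% of all genes) and 0 lower, with a median of 0.09. These counts were 3 and 1 without CMP replicate B, 2 and 1 without C, 3 and 0 without LSK replicate C, and 10 and 2 without LSK replicate B of sh10. *Ccne1*, the cyclin of S phase entry, measured 29.2, 20.0 and 50.3 CPM in LSK cells and 150 and 158 CPM in CMPs, a log2 fold change of 2.21 ± 0.34 (SE, edgeR, adjusted p = 0.00033). *Cdc6*, a licensing factor, rose from 105, 132 and 160 CPM to 204 and 240 CPM (0.75 ± 0.17, adjusted p = 0.00697), and lost its call without CMP replicate C. *Mcm10* (0.69) and *Gins2* (0.52) lost theirs without CMP replicate B and C respectively, and *Gins2* also without LSK replicate A or C. *Cdkn1a*, which encodes p21, was at 5.72 to 9.55 CPM in LSK cells and 20.8 and 34.9 CPM in CMPs (1.90 ± 0.47, adjusted p = 0.012), with no call without CMP replicate C. *Ccng2* was lower (-0.84), with no call without CMP replicate B (adjusted p = 0.22) or LSK replicate A.

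Most genes of translation and respiration did not pass. The share called higher was 10.0% for ribosome biogenesis genes, against 5.94% of all genes, and 47 of those 60 had a positive fold change. Of 60 ribosome biogenesis genes 6 were higher and 0 lower, with a median of 0.21, and 2 were higher without CMP replicate B. DESeq2 called 11 higher, and edgeR called 18 without LSK replicate B of sh10 and 11 without CMP replicate A of *Renilla*. *Utp18* measured 115, 97.4 and 76.4 CPM in LSK cells and 163 and 169 CPM in CMPs (0.79 ± 0.16, edgeR, adjusted p = 0.0031), and *Polr1b*, a subunit of RNA polymerase I, 159, 151 and 124 against 212 and 256 CPM (0.70 ± 0.14, edgeR, adjusted p = 0.00314). Of 78 cytosolic ribosomal protein genes 2 were higher, *Rpl10* (1.90) and *Rpl13a* (0.88), the latter with no call in 15 of 28 alternative fits. Of these genes 1 was higher without CMP replicate B, and 6 without LSK replicate B of sh10. Such genes have many near-identical pseudogenes, and the counting could split their reads. Of 76 nuclear genes of the respiratory chain 1 was higher and 0 lower, a share of 1.32% against 5.94% of all genes, with a median of 0.06. It was *Atp5g1*, a subunit of ATP synthase, at 3.44 to 4.93 CPM in LSK cells and 7.79 and 11.1 CPM in CMPs (1.25, edgeR, adjusted p = 0.0426, and 0.0516 without CMP replicate B). No member was higher in 15 of 28 alternative fits, and 4 were higher without LSK replicate B of sh10. Of 7 mitochondrially encoded genes 1 was higher, *mt-Nd2* (0.51, adjusted p = 0.0459), with no call in 13 of 28 alternative fits. In glycolysis, 3 of 22 genes were higher and 5 lower, with a median of -0.21, and without CMP replicate B 1 was higher and 2 were lower. *Pklr*, the pyruvate kinase of red cells and liver, rose from 2.76, 3.23 and 0.367 CPM to 106 and 69.4 CPM (5.39 ± 0.71, edgeR, adjusted p = 9.95e-05). *Hk3*, a myeloid hexokinase, fell from 194, 225 and 187 CPM to 50.2 and 48.5 CPM (-2.03 ± 0.20, edgeR, adjusted p = 7.45e-06). *Hk2* and *Ldhb* (-2.39 and -1.79) lost their calls without CMP replicate B.

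The same step was then set beside that in cells with the *Renilla* hairpin and with sh10. The CMP against LSK comparison called 1663 genes higher and 1316 lower (11% and 8.73%) with *Renilla* in 4 against 4 libraries, and 1131 higher and 1293 lower (7.51% and 8.58%) with sh10 in 3 against 3. Counts of calls depend on the number of libraries, so the difference between steps was tested as an interaction term in the same fit. Against *Renilla*, the step with sh20 was higher in 16 genes (0.106%) and lower in 72 (0.478%), or 0.584% in either direction. Against sh10, it was higher in 8 genes (0.0531%) and lower in 31 (0.206%), or 0.259% in either direction. Both tests use the same 5 sh20 libraries, so they are not independent. When CMP replicate B was left out, 16 and 65 genes were called against *Renilla*, among them 6 of the 16 and 24 of the 72, and 15 and 44 against sh10, among them 3 of the 8 and 16 of the 31. Most of the calls against *Renilla* and 5 of the 8 higher calls against sh10 were thus lost without that library. Without CMP replicate C, when replicate B alone stands for CMPs with sh20, 165 and 642 genes were called against *Renilla* and 199 and 607 against sh10.

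**Figure D4:**
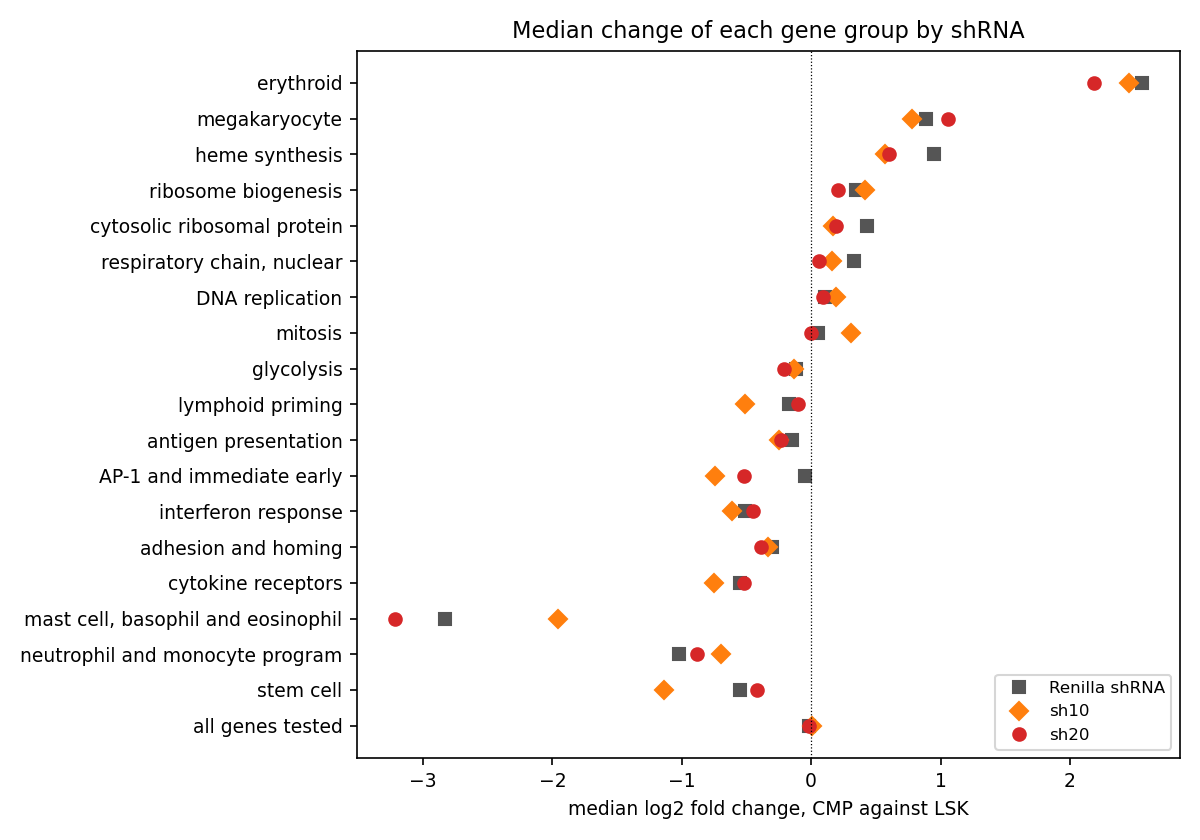
Median log2 fold change of CMPs against LSK cells for each gene group with the *Renilla* hairpin (squares), sh10 (diamonds) and sh20 (circles). The erythroid medians lie at 2.56, 2.46 and 2.19 and the respiratory chain medians at 0.33, 0.16 and 0.06.

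The medians of the main lists were then read for each hairpin. The erythroid median was 2.56 with *Renilla*, 2.46 with sh10 and 2.19 with sh20, and that of the neutrophil and monocyte program -1.02, -0.70 and -0.88. No erythroid, heme, megakaryocyte or stem cell gene passed either interaction test, though 4 of 31 erythroid and 10 of 44 stem cell genes had an unadjusted p under 0.05 against *Renilla*, beside 13.8% of all genes. The respiratory chain median was 0.33 with *Renilla* (39 of 76 higher), 0.16 with sh10 (6 higher) and 0.06 with sh20 (1 higher). With log2 total count as a covariate the sh20 median was 0.20 (2 higher), and with upper quartile normalization 0.02 (0 higher). The interaction against *Renilla* had a median of -0.30 over these 76 genes, 0 passed, and 20 had an unadjusted p under 0.05. The study drew a respiratory gene signature from these same libraries, so this list is not independent evidence of a direction. Ribosomal protein genes had medians of 0.43, 0.17 and 0.19, and 17, 2 and 2 were called higher. Ribosome biogenesis genes had medians of 0.35, 0.42 and 0.21, and 35, 31 and 6 of 60 were called higher. Their interactions were negative for 47 genes against *Renilla* and 50 against sh10, and 0 passed. Over all 15066 genes, 8281 and 8184 were negative. For immediate early genes the median was -0.05 with *Renilla*, -0.74 with sh10 and -0.52 with sh20, and *Fos* (adjusted p = 0.0322) and *Ier5l* (adjusted p = 0.0132) passed as lower against *Renilla* in edgeR. They had 1 and 4 counts over both CMP libraries with sh20, so no fitted size is given, and the call of *Fos* in the sh20 step itself was lost without CMP replicate B. With *Renilla*, *Fos* ranged from 1.81 to 8.87 CPM in LSK cells and from 3.66 to 47.4 CPM in CMPs, and *Ier5l* from 3.17 to 6.48 and from 2.68 to 8.59 CPM. The T and NK cell markers had medians of 2.72 with *Renilla*, -1.07 with sh10 and 0.80 with sh20. Mature neutrophil markers had medians of -4.31, -3.93 and -0.03, and their summed level in LSK cells ranged from 8.87 to 374 CPM with *Renilla*, from 75.3 to 347 CPM with sh10 and from 7.10 to 25.2 CPM with sh20, so that the *Renilla* and sh20 libraries overlapped.

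*Csf3r* was the gene of the fixed groups that passed both interaction tests. In CMPs it measured 17.8 and 23.2 CPM with sh20, 59.4 to 67.5 CPM with *Renilla* and 61.9 to 68.5 CPM with sh10. In LSK cells it measured 154 to 199 CPM with sh20, 209 to 221 CPM with *Renilla* and 227 to 276 CPM with sh10. The sh20 libraries were thus the lowest in both populations, and by more in CMPs. Its fall was larger with sh20 than with *Renilla* by 1.33 on the log2 scale (interaction -1.33, edgeR, adjusted p = 0.00165) and than with sh10 by 1.19 (interaction -1.19, edgeR, adjusted p = 0.00775). It was called against *Renilla* in all 27 alternative fits, with adjusted p up to 0.0341. Against sh10 it was called in all but 1, the replicate block within each shRNA (adjusted p = 0.0792).

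Other genes differed in the step itself. *Alpk1*, the kinase that senses bacterial ADP-heptose, measured 9.66, 7.74 and 9.37 CPM in LSK cells and 47.3 and 40.0 CPM in CMPs with sh20. With *Renilla* it was at 13 to 18.9 CPM in LSK cells and 11.5 to 18.1 CPM in CMPs, and the interaction was 2.44 ± 0.41 (SE, edgeR, adjusted p = 0.0136). With sh10 it was at 8.03 to 15.9 and 7.64 to 11.7 CPM (2.38 ± 0.44, edgeR, adjusted p = 0.0284). *Alpk1* thus rose on this step with sh20, and did not pass with *Renilla* (adjusted p = 0.744) or sh10 (adjusted p = 0.87). *Unc5a*, a netrin receptor, measured 15.8, 12.0 and 16.5 CPM in LSK cells and 29.5 and 15.8 CPM in CMPs with sh20, and went from 22.1 to 30.7 CPM down to 2.70 to 6.26 CPM with *Renilla*. Its interactions were 3.08 (adjusted p = 0.00245) and 2.62 against sh10 (edgeR, adjusted p = 0.0173). The annotated *Unc5a* and *Hk3* overlap at their ends on opposite strands. Against *Renilla*, *Alpk1* lost its call in 2 of 27 alternative fits, with adjusted p up to 0.0901 in edgeR. These were the replicate block within each shRNA and the total count as a covariate. *Unc5a* lost its call against *Renilla* under that block alone (adjusted p = 0.0817). Against sh10, *Alpk1* lost its call in 8 and *Unc5a* in 6 of 27 alternative fits, the one without CMP replicate B among them.

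*Prdm10*, a zinc finger factor, measured 15.8, 29.2 and 27.0 CPM in LSK cells and 1.19 and 0.351 CPM in CMPs with sh20. With sh10 it was at 10.9 to 25.7 CPM in LSK cells and 31.1 to 33.4 CPM in CMPs, an interaction of -5.58 ± 0.65 (SE, edgeR, adjusted p = 0.001), and against *Renilla* the interaction was -4.57 (adjusted p = 0.00224). *Vdr*, the vitamin D receptor, measured 26.0, 39.8 and 68.7 CPM in LSK cells and 0.847 and 0.878 CPM in CMPs with sh20, with interactions of -4.56 ± 0.60 against sh10 (edgeR, adjusted p = 0.00273) and -3.92 against *Renilla* (adjusted p = 0.0047). CMPs held 10.3 to 21.1 CPM of *Vdr* with sh10 and 9.75 to 15.7 CPM with *Renilla*, and LSK cells 24.9 to 35.2 and 34.9 to 48.3 CPM. *Prdm10* and *Vdr* kept their calls against sh10 in all 26 alternative fits. *Trib3* had 1 count in each CMP library with sh20 and 1.58 to 10.6 CPM in CMPs with *Renilla*. The LSK libraries with *Renilla* were at 9.27 to 16.0 CPM, below all 3 with sh20 (interaction -5.77 ± 1.0, edgeR, adjusted p = 0.0136). At such counts the fitted size depends on the prior count, and it ranged from -6.05 to -4.99 over the alternative fits. *Ltb*, lymphotoxin β, fell with sh10, from between 41.9 and 76.5 CPM in LSK cells to between 6.23 and 8.98 CPM in CMPs. With sh20 it measured 39.8, 84.9 and 75.7 CPM in LSK cells and 57.8 and 73.2 CPM in CMPs, an interaction of 2.89 (edgeR, adjusted p = 0.0111). This call was lost under the replicate block within each shRNA (adjusted p = 0.0952). *Trib3*, like *Azin2*, *Arhgap28* and *Nckap5l*, lost the call against *Renilla* without CMP replicate B.

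**Figure D5:**
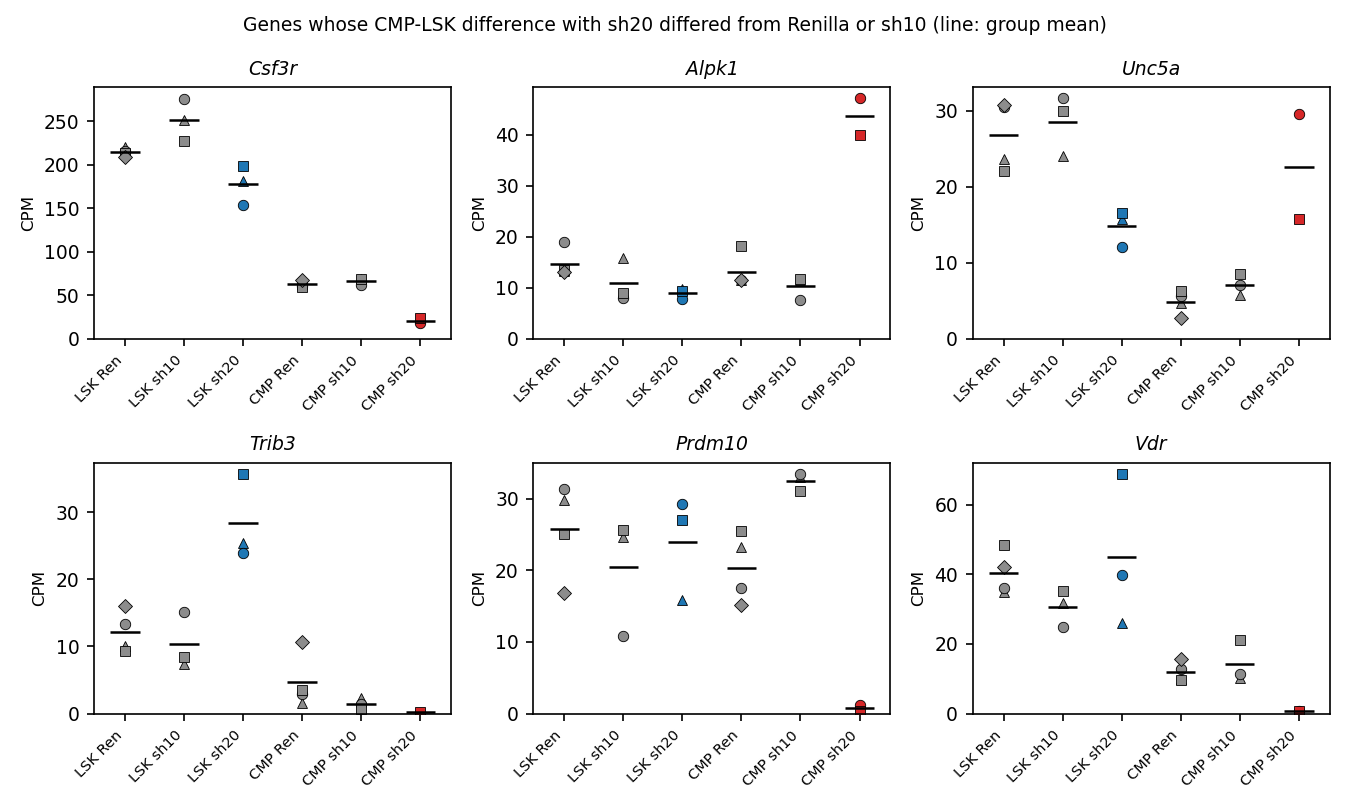
CPM of 6 genes in all 19 libraries by population and hairpin (linear axes from 0, symbols give the replicate letter, lines the group means). In CMPs with sh20 (red), *Csf3r*, *Trib3*, *Prdm10* and *Vdr* lie below the other CMP groups and *Alpk1* and *Unc5a* above them, and the sh20 LSK libraries (blue) lie lowest for *Csf3r* and *Unc5a*.

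None of the 3 genes at the *Spehd* locus passed the test on this step with sh20. *Gata2*, on chr6 from 88193891 to 88207032, measured 424, 590 and 495 CPM in LSK cells and 482 and 456 CPM in CMPs with sh20 (-0.10 ± 0.11, edgeR, adjusted p = 0.591). *Rpn1*, on the other side from 88084482 to 88105304, measured 376, 398 and 361 against 355 and 359 CPM (-0.08 ± 0.08, edgeR, adjusted p = 0.513). *Gm38708*, an annotated lincRNA within the locus from 88188397 to 88190681, had 33 counts over the LSK libraries and 5 over the CMP libraries (adjusted p = 0.29). With *Renilla*, *Rpn1* passed as higher in CMPs (0.22, edgeR, adjusted p = 0.014), and *Gata2* (0.16) and *Gm38708* (0.32) did not pass. The interactions of all 3 were negative, with medians of -0.30 against *Renilla* and -0.25 against sh10, and 0 passed (smallest adjusted p = 0.194 in edgeR). The 3 values with sh20 did not pass, and with the total count as a covariate the small differences of *Gata2* and *Rpn1* turned to 0.02 each.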

How the data were processed

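Per the labels, RNA was amplified with a SMART-Seq v4 kit. The authors aligned reads to mm10 with STAR, removed duplicates with Picard, which without molecular identifiers can lower counts of abundant genes, and counted with HTSeq on GENCODE vM11. The deposited counts are whole reads per gene without normalization. Rows that name no gene (51.95 to 53.82% of reads without a feature, 0.694 to 0.827% ambiguous) were left out. HTSeq counts by strand by default, and the kit's strand was not given in the sources used here, so genes that overlap another (59 of 120 named) are less certain.

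Counts were tested with edgeR 4.0.16 (R 4.3.3) by quasi-likelihood, after TMM and filterByExpr (minimum count 10, total 15), with all 19 libraries in 6 groups and Benjamini-Hochberg adjustment over 15066 genes at 0.05. DESeq2 1.42.0 was an alternative. On simulated data for this comparison, edgeR recovered 27 of 100 genes changed 2-fold and 55 of 100 changed 4-fold, with 4 unchanged genes called. DESeq2 recovered 47 and 62, with 37 unchanged genes called. The simulation gave all groups the same spread per gene. Real replicate pairs correlated at r = 0.884 to 0.918 with sh20 and at 0.922 to 0.983 in the other groups. The simulation therefore does not measure false calls among the real sh20 libraries. Intervals are 95% and, like floors of 3 counts, cover counting error only. Named genes were the 10 largest rises and falls (no overlap between groups, 50 or more counts on average), up to 4 called members per list, all gate and locus genes, and the 5 largest interactions each way. Other genes were added after their values were seen. Members and lists were chosen with earlier results of these data known. Coordinates are from GENCODE vM21 by symbol. A table of normalized values was not used. Some genes that the rule names are not reported here.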

Additional observations from a re-analysis of the deposited data

Results flagged for a closer look

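These results were singled out because the difference between CMPs and LSK cells with sh20 differed from that with another hairpin by an interaction test of edgeR (adjusted p under 0.05). Against *Renilla* these were 16 genes with a higher difference and 72 with a lower one, and against sh10 8 and 31. Against *Renilla*, the log2 difference was higher by 3.52 for *Slc22a23*, 3.08 for *Unc5a*, 2.88 for *Zkscan8*, 2.44 for *Alpk1* and 1.74 for *Macf1*. It was lower for *Arhgap28* (-6.56), *Azin2* (-6.22), *Trib3* (-5.77), *Ccdc149* (-5.40), *Nckap5l* (-5.37) and *Csf3r* (-1.33). Against sh10 it was higher by 2.89 for *Ltb*, 2.62 for *Unc5a*, 2.38 for *Alpk1*, 1.77 for *Tanc1* and 1.19 for *Tnfrsf1b*. It was lower for *Prdm10* (-5.58), *Zfp938* (-4.73), *Kcng1* (-4.69), *Vdr* (-4.56), *Plekhm3* (-4.44) and *Csf3r* (-1.19). *Arhgap28*, *Azin2*, *Trib3*, *Ccdc149* and *Nckap5l* were at 0.339 CPM or below in each CMP library with sh20. *Zfp938* was at 0 and 0.878 CPM there. At such counts the fitted sizes depend on the prior count. Over the alternative fits they ranged from -8.65 to -5.44 for *Arhgap28*, -8.31 to -4.53 for *Ccdc149* and -8.86 to -3.77 for *Zfp938*. *Slc22a23* measured 1.77, 0.645 and 0.735 CPM in LSK cells and 73.9 and 38.1 CPM in CMPs with sh20, against 4.75 to 10.1 and 12.5 to 55.8 CPM with *Renilla*. *Zkscan8* was at 3.94 to 13.8 CPM in LSK cells and 31.0 and 57.1 CPM in CMPs with sh20, against 15.8 to 23.7 and 8.59 to 18.6 CPM with *Renilla*. *Kcng1* was at 0.678 and 1.23 CPM in CMPs with sh20, and at 18.5 to 38.4 CPM in CMPs with sh10. *Plekhm3* was at 0.339 and 1.76 CPM in CMPs with sh20, and at 17.7 to 23.6 CPM in CMPs with sh10. Many of these calls were not stable. In 26 or 27 alternative fits, the call against *Renilla* was lost in 16 for *Zkscan8*, 13 for *Arhgap28*, 12 each for *Slc22a23* and *Nckap5l*, and 9 for *Macf1*, and the call against sh10 in 19 for *Tnfrsf1b*, 15 for *Tanc1*, 14 for *Plekhm3*, 7 for *Zfp938* and 3 for *Kcng1*. Without CMP replicate B of sh20, *Slc22a23*, *Macf1*, *Arhgap28*, *Azin2*, *Trib3* and *Nckap5l* lost their calls against *Renilla*, and *Unc5a*, *Alpk1*, *Tnfrsf1b*, *Zfp938*, *Kcng1* and *Plekhm3* lost theirs against sh10.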

How the results depend on the processing

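With sh20, genes higher and lower in CMPs numbered 564 and 753 with at least 10 counts in every library, 142 and 151 from the 5 sh20 libraries alone, and 586 and 943 with an absolute log2 fold change of at least 1 as well. Leaving out 1 library gave 595 to 1464 higher (lowest without CMP replicate B of sh20, highest without LSK replicate B of sh10) and 841 to 1675 lower (lowest without CMP replicate B, highest without C, of sh20). The interactions were less stable. Genes higher and lower against *Renilla*, then against sh10, numbered 224, 250, 237 and 278 without a filter, 2, 1, 3 and 2 with at least 10 counts in every library, 104, 192, 128 and 175 in DESeq2, and 1, 17, 2 and 18 with log2 total count as a covariate. Leaving out 1 library gave 4 to 165, 41 to 642, 2 to 199 and 18 to 607, highest without CMP replicate C of sh20, and lowest without LSK replicate A of *Renilla* or CMP replicate B of sh10. The causes were not tested. Replicate letters were not taken as pairs in the main fit. The deviations of same-letter CMP and LSK libraries correlated at -0.000694 to 0.21. With *Renilla* the same-letter values, 0.0222 to 0.116, lay above those of different letters, -0.0562 to 0.0174. With sh10 the ranges overlapped (0.0408 to 0.21 and -0.169 to 0.0901). The 2 CMP libraries with sh20 have mirrored deviations, so they cannot decide whether letters mark pairs. A replicate block within each shRNA gave 602 and 1000 genes for CMPs against LSK cells and 0, 8, 0 and 6 for the interactions, and a block of shared letters 720 and 1064 and 10, 43, 1 and 11. *Gata2* ranged from -0.21 (without LSK replicate A of sh20) to 0.048 (without B) and was 0.017 with the total count as a covariate, where *Rpn1* was 0.019. *Cd79a* ranged from -0.42 (without CMP replicate C) to 6.43 (without LSK replicate B). At this depth the 10 largest falls rest on 1 to 4 CMP counts.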
